A study of Mus musculus with 8 samples.

Results

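Oligosaccharyltransferase and signal peptidase are the enzyme complexes that act on a growing protein as it enters the endoplasmic reticulum (ER). Oligosaccharyltransferase moves a preassembled sugar chain from the lipid dolichol onto asparagines of the new chain, the first step of N-glycosylation, and signal peptidase cuts off the signal peptide that directed the chain to the ER. Each complex has catalytic subunits and non-catalytic partners, and oligosaccharyltransferase exists in forms built around Stt3a, which works beside the translocon while the chain is still being made, or around Stt3b, which can also modify sites that were passed over. The genes described here are 10 subunits of both complexes among the 18138 gene symbols on the array, namely Stt3a, Stt3b, Rpn1, Rpn2, Ddost and Dad1 of oligosaccharyltransferase and Spcs1, Spcs2, Spcs3 and Sec11a of signal peptidase. They were found by symbol, and the table held 11 probes for them. The set was chosen by complex membership with the measured difference between moR-21 and control samples already known, so its moR-21 values are given as a description, with no p-value, and support nothing further.

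The cells were primary mouse aortic smooth muscle cells, grown out of pieces of several mouse aortas with the adventitia removed. In the moR-21 group (3 samples, 4 arrays) they had been transfected with a mimetic of the microRNA-offset RNA moR-21, and in the control group (3 samples, 4 arrays) with a scrambled oligonucleotide. Both groups received 5 nM with the same lipid reagent, and total RNA was isolated after 48 h. A repeat array, B beside A, was run for control sample 1 and for moR-21 sample 3, and such pairs were averaged. The labels do not say whether the samples were separate cultures, so the spread between them may be technical. One label field calls the cells AoECs, whereas the source and cell type fields call them smooth muscle cells. Of the endothelial marker genes on the array, 7 of 8 were detected on none of the arrays. The remaining one, Vwf, was detected on all 8 arrays, at a log2 signal of 6.89 in control samples. Of the 7 smooth muscle markers on the array, Acta2, Des and Smtn were detected on all 8 arrays. Tagln was detected on 4 arrays and Lmod1 on 3, whereas Myh11 and Cnn1 were detected on none. Probes detected numbered 10290 to 10508 on control arrays and 10285 to 10512 on moR-21 arrays.

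MoR-21 comes from the same hairpin as miR-21. The hairpin, Mir21a, spans chr11:86584067-86584158 on the minus strand of the mouse assembly GRCm38.p6. The stretch of moR-21 in it was placed by the run GUACC, bases 3 to 7 of moR-21, which lies at bases 2 to 6 of the hairpin. The placement rests on that run alone. Base 1 of moR-21 thus lies 1 base before the annotated hairpin, and miR-21a-5p starts at base 18 of the hairpin. Both stretches are shown from RefSeq to let the agent given to these cells be compared with its better known neighbour, with the seed (bases 2 to 8 of each small RNA) in capitals.
moR-21, its 17 bases inside the hairpin: UGUACCAccuugucgga
miR-21a-5p: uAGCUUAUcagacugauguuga
The seeds carry the same base at 1 of 7 positions.

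The catalytic subunits of oligosaccharyltransferase were both lower after moR-21. Stt3b, the catalytic subunit of the form that can act late, was read by a bright probe, with log2 signals of 12.01, 11.82 and 11.90 in the control samples and 10.48, 10.31 and 10.50 in the moR-21 samples. The lowest control sample thus stood far above the highest moR-21 sample. Stt3b fell by 1.48 on the log2 scale (standard error 0.0618, 95% confidence interval −1.62 to −1.35), to 35.8% of its control level. Over all 8727 genes tested, counted from the largest fall, it stood at rank 7. On the linear scale and before any normalization, the 4 control arrays read 4307, 4423, 3341 and 3759 and the 4 moR-21 arrays 1462, 1210, 1576 and 1295. The repeat array differed from its partner by −0.11 in control sample 1 and by −0.18 in moR-21 sample 3, both small beside the treatment difference. In RNA from a whole culture, fewer cells making a transcript and less transcript per cell cannot be told apart.

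Stt3a, the catalytic subunit of the form that acts during translation, was read by a dim probe. Its log2 signals were 7.46, 7.44 and 7.40 in the control samples and 6.98, 7.03 and 7.06 in the moR-21 samples, so that the groups did not overlap. It fell by 0.41 (standard error 0.0461, 95% confidence interval −0.51 to −0.31), to 75.3% of its control level, just past the 1.3-fold limit used for a call. The deposited intensities were 163 to 192 on the control arrays and 128 to 136 on the moR-21 arrays, where the lowest probe of an array read 84 to 88, so a large part of the Stt3a signal was background. With normexp background correction, which estimates that floor and removes it, the log2 fold change of Stt3a was −0.93 (95% confidence interval −1.12 to −0.74), or 52.4% of control. That of Stt3b was then −1.54 (95% confidence interval −1.74 to −1.34), little different from its value without correction. The gap between the paired catalytic subunits therefore depended on how background was treated, while the fold change of Stt3b was the more negative of the pair either way.

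**Figure D1:**
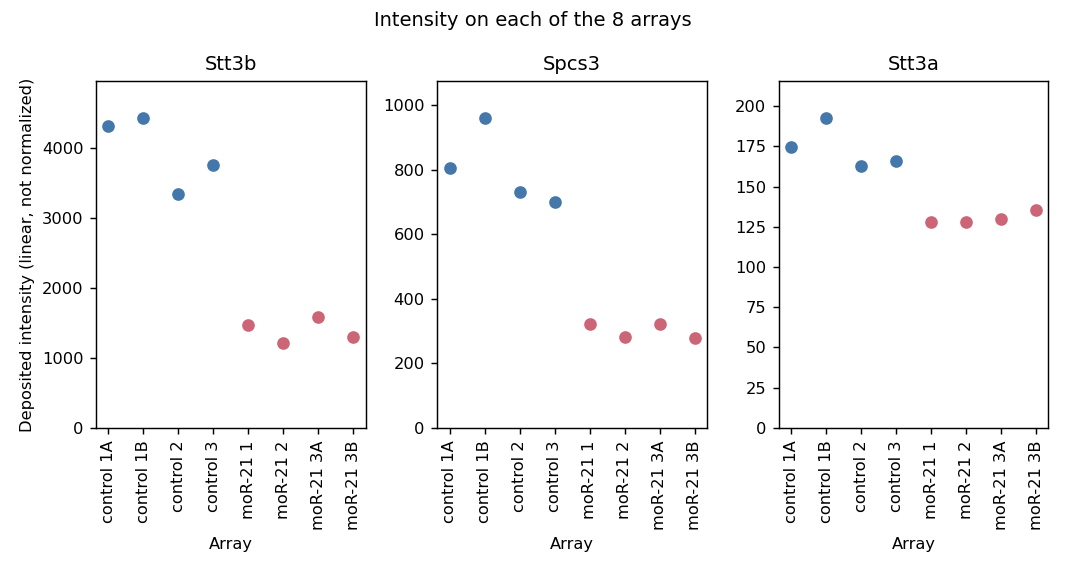
Deposited intensity (linear scale, not normalized, each axis starting at 0) of Stt3b, Spcs3 and Stt3a on the 4 control arrays (blue) and 4 moR-21 arrays (red), with 1A and 1B, and 3A and 3B, being arrays of the same sample. All moR-21 arrays lie below all control arrays for each gene. Stt3a reads 163 to 192 on control arrays and 128 to 136 on moR-21 arrays, where the dimmest probes read 84 to 88.

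The non-catalytic subunits of oligosaccharyltransferase did not follow one direction. Rpn2 (ribophorin II), a structural subunit, had log2 signals of 12.91, 12.87 and 12.81 in control samples and 12.55, 12.48 and 12.56 in moR-21 samples, with no overlap. The difference was −0.33 (standard error 0.0476, 95% confidence interval −0.44 to −0.23), or 79.4% of control, just short of the fold limit. Ddost, another non-catalytic subunit that helps hold the complex together, read 8.27, 8.17 and 8.27 in control samples and 8.15, 7.99 and 7.93 in moR-21 samples. Here moR-21 sample 1 came close to control sample 2 without passing it, and Ddost differed by −0.21 (standard error 0.0589). Dad1, a small membrane subunit first known as a defender against cell death, read 10.99, 10.94 and 11.02 in control samples and 11.15, 11.28 and 11.19 in moR-21 samples. All its moR-21 samples were the higher ones, by a mean of 0.23 on the log2 scale (standard error 0.0496, 95% confidence interval 0.12 to 0.33). None of Rpn2, Ddost and Dad1 met both limits for a call. The probe of Rpn1 (ribophorin I) was detected on 0 of the 8 arrays, with detection p-values from 0.0313 to 0.278, so no change is given for it.

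Signal peptidase showed the same unevenness within a single complex. Spcs3, a non-catalytic subunit with a large luminal part that is needed for peptidase activity, had log2 signals of 9.68, 9.66 and 9.49 in control samples and 8.29, 8.19 and 8.22 in moR-21 samples. Each moR-21 sample was more than 1 log2 unit below each control sample. Spcs3 fell by 1.38 (standard error 0.0566, 95% confidence interval −1.50 to −1.25), to 38.6% of its control level, which placed it at rank 12 among the genes tested. Its intensity was 701 to 961 on control arrays and 277 to 322 on moR-21 arrays. With background correction its log2 fold change was −1.68 (95% confidence interval −1.87 to −1.49), below that of Stt3b. The confidence intervals of Stt3b and Spcs3 overlapped with and without the correction, so the order of these leading falls is not settled. RefSeq gives Spcs3 as a synonym of the related genes Arxes1 and Arxes2, whose own probes were dim. The Arxes1 probe was detected on 0 arrays and the Arxes2 probe on 6, at intensities of 108 to 128, with a log2 fold change of 0.10 and no call. Whether the Spcs3 probe also captures their RNA was not tested.

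Sec11a, the serine-type catalytic subunit of signal peptidase, showed no difference beyond the spread between samples. Its log2 signals of 10.61, 10.68 and 10.74 in control samples interleaved with 10.62, 10.59 and 10.76 in moR-21 samples. The mean difference was −0.02 on the log2 scale with a 95% confidence interval of −0.14 to 0.10, and its sign changed under some alternatives. Spcs1, a small membrane subunit, was read by a pair of probes that both stood higher. The brighter one had 11.88, 11.80 and 11.87 in control samples against 12.07, 12.12 and 12.17 in moR-21 samples, a log2 fold change of 0.27 (standard error 0.0476, 95% confidence interval 0.17 to 0.37). The dimmer one gave 10.60, 10.45 and 10.69 against 10.97, 10.94 and 10.86, a log2 fold change of 0.34 (standard error 0.0602), and neither was called. The pair of arrays of control sample 1 differed by −0.29 on the brighter Spcs1 probe, about as much as the treatment difference itself, and by −0.11 to 0.12 on the other detected subunit probes. The pair of moR-21 sample 3 differed most, by 0.23, on the dimmer Spcs1 probe. The probe of Spcs2, the remaining non-catalytic subunit, was detected on 0 arrays, with detection p-values from 0.153 to 0.738.

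**Figure D2:**
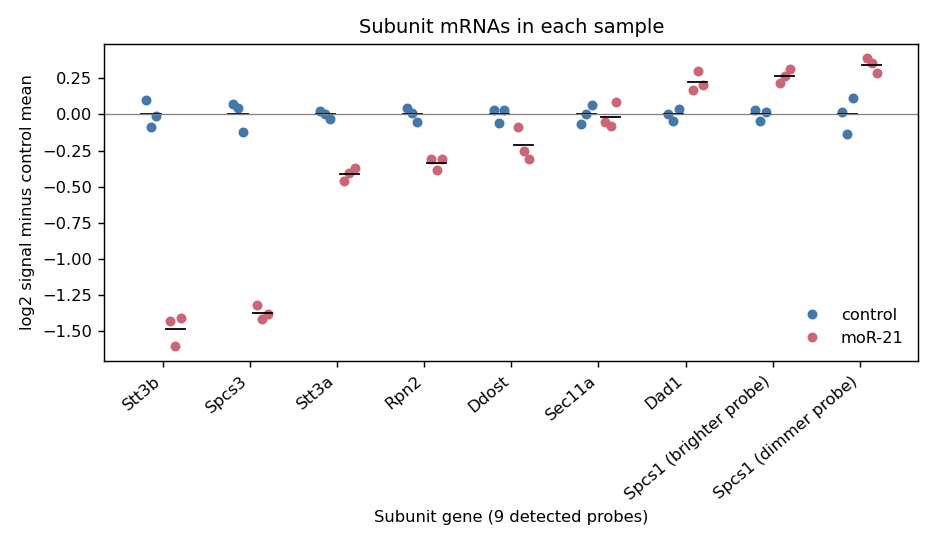
Log2 signal of the 9 detected probes of the subunit genes in each of the 3 control samples (blue) and 3 moR-21 samples (red), as the difference from the control mean, with black bars at group means. Stt3b and Spcs3 stand apart by −1.48 and −1.38, Stt3a, Rpn2 and Ddost by −0.41 to −0.21, Sec11a overlaps, and Dad1 and Spcs1 are 0.23 to 0.34 higher.

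Of the 10 subunit genes 8 were tested, each detected on all 8 arrays. A gene was called where it changed more than 1.3-fold with a limma p below 0.002 after Benjamini-Hochberg adjustment over all 11651 tested probes, with each gene read at its brightest detected probe. By this rule 3 subunit genes were called lower, Stt3b, Spcs3 and Stt3a, where 4.38% of all genes tested were called lower. No subunit gene, 0 of 8, was called higher, where 3.41% of all genes were. The samples of the groups did not overlap for 7 of the 8 genes, 5 lower and 2 higher, and for 46.3% of all genes. The median log2 fold change was −0.27 over the subunits and 0.01 over all genes. Because the set was assembled with these differences in view, nothing is read from those contrasts.

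**Figure D3:**
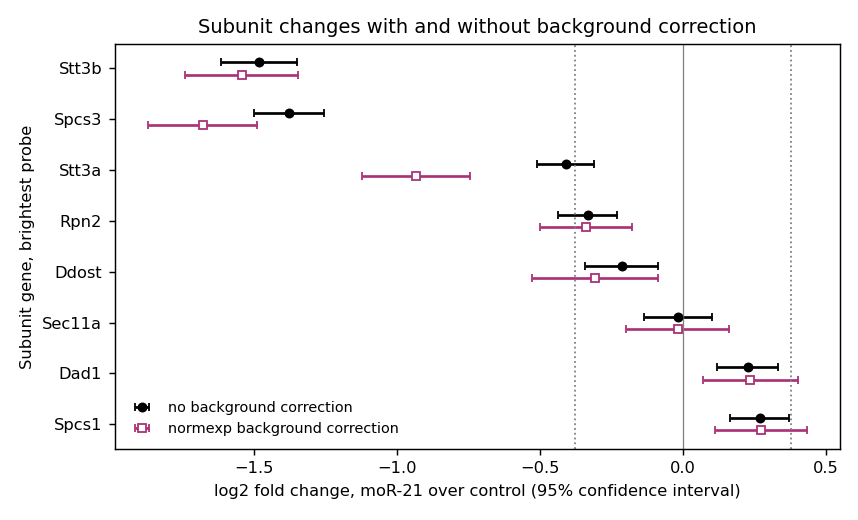
Log2 fold change of moR-21 over control, with 95% confidence intervals from limma (n = 3 samples per group), for the 8 tested subunit genes without (black circles) and with normexp background correction (open squares). Dotted lines mark a 1.3-fold change. Stt3a moves most with the correction, from −0.41 to −0.93, and Spcs3 from −1.38 to −1.68, while Rpn2, Sec11a, Dad1 and Spcs1 move by under 0.02.

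The genes that share the route into the ER and the handling of N-glycans were read from lists of 68 genes. These lists were also chosen with earlier results of these data known. Their counts and adjusted p-values, here and in the next paragraphs, are therefore descriptions and support nothing further. The array held 61 of them, and 55 were detected and tested. In all, 5 of the 55 were called lower and 1 higher by limma, where 4.38% of all genes tested were called lower and 3.41% higher. The median log2 fold change was −0.07, against 0.01 over all genes. Among the further partners of oligosaccharyltransferase, Mlec (malectin), an ER lectin that binds glucosylated glycans and associates with ribophorin I, fell by 0.56 (standard error 0.0466, limma adjusted p = 6.56e-07). Its control samples read 7.51, 7.57 and 7.52 and its moR-21 samples 7.02, 6.93 and 6.96, which is dim, and with background correction its log2 fold change was −1.27. Another detected Mlec probe also fell, with −0.62, and one detected on 4 arrays had −0.25 without a call. Ostc, a subunit of the Stt3a form, differed by 0.09 on the log2 scale (limma adjusted p = 0.275), and Krtcap2, another subunit of that form, by 0.19 (limma adjusted p = 0.0305), neither called. The partners Ost4, Tusc3, Magt1 and Tmem258 were matched to no symbol and were not analysed here. The partners read here that belong to one form, Ostc and Krtcap2, are thus of the Stt3a form only. Neither Sec11c, the alternative catalytic subunit of signal peptidase (log2 fold change 0.06, limma adjusted p = 0.541), nor Hm13, the signal peptide peptidase that clears cut signal peptides (−0.05, limma adjusted p = 0.541), was called.

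At the translocon, the channel through which chains enter the ER, 2 of 18 tested genes of the signal recognition particle and translocon list were called lower and 0 higher (4.38% and 3.41% over all genes). Sec61a1, the pore-forming subunit, read 9.06, 9.06 and 8.99 in control samples and 8.46, 8.49 and 8.43 in moR-21 samples. It fell by 0.58 (standard error 0.0459, limma adjusted p = 4.50e-07). Sec63, a translocon partner that recruits the chaperone BiP, read 9.22, 9.32 and 9.31 against 8.71, 8.72 and 8.68, and fell by 0.58 as well (limma adjusted p = 5.16e-07), with a second detected probe at −0.60. In both genes the groups were separated by several times the spread within them. The other 16 genes, which include signal recognition particle subunits, its receptor and the translocon-associated proteins, lay between −0.21 and 0.25, without a call. At the upper end, and named after their values were seen, Srp9 (0.25, limma adjusted p = 0.00569) and Ssr3 (0.22, limma adjusted p = 0.0120) had all moR-21 samples above all control samples but stayed under the fold limit. Sec61g, at 0.22, overlapped between the groups. Sec61a2, likewise named afterwards, had all moR-21 samples below all control samples (−0.17, limma adjusted p = 0.0140). In this list the groups did not overlap for 5 of the 18 genes, 3 lower and 2 higher, and for 46.3% of all genes.

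Assembly of the dolichol-linked sugar chain, the donor that oligosaccharyltransferase consumes, gave 0 genes called lower and 1 called higher of 22 tested, a share near the 3.41% of all genes called higher. Of the 22 values 17 were negative, where 4208 of all 8727 genes were. The list median was −0.09, against 0.01 over all genes. In this list the groups did not overlap for 12 of the 22 genes, 9 lower and 3 higher, and for 46.3% of all genes. The gene called higher was Alg2, a mannosyltransferase of the early cytosolic steps. It had 7.08, 7.10 and 7.08 in control samples and 7.57, 7.49 and 7.41 in moR-21 samples. Its rise of 0.40 on the log2 scale (limma adjusted p = 2.70e-05) was just past the fold limit, and without moR-21 sample 1 the value was 0.36 and not called. The Alg2 probe was dim as well, and with background correction its log2 fold change was 0.87, still called. After transfer the glucoses are trimmed. The list for this part covers glycan trimming and later handling of glycoproteins in general, and reaches beyond the removal of glucose. Of its 10 genes tested 2 were called lower and 0 higher, beside 4.38% and 3.41% of all genes. Prkcsh, the regulatory subunit of glucosidase II, fell by 0.41 (standard error 0.0457, limma adjusted p = 1.22e-05). Ganab, its catalytic partner, named here after its value was seen, stood at −0.33 (limma adjusted p = 4.42e-04) and was short of the fold limit. Also named after their values were seen, Mcfd2 (0.30, limma adjusted p = 3.2e-04) and Man1b1 (0.26, limma adjusted p = 0.00111) were higher and not called. In this list the groups did not overlap for 8 of the 10 genes, 5 lower and 3 higher, and for 46.3% of all genes. Mogs, glucosidase I, fell by 0.42 (standard error 0.0713, limma adjusted p = 4.43e-04), with control samples from 8.30 to 8.52 and moR-21 samples from 7.91 to 8.17. With background correction 3 of the related genes were called lower, Mlec, Sec61a1 and Sec63, and the call was lost for Prkcsh and Mogs. Their values did not shrink, at −0.42 for Prkcsh and −0.58 for Mogs, and it was the adjusted p from limma that rose past the limit, to 0.00213 and 0.00607.

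**Figure D4:**
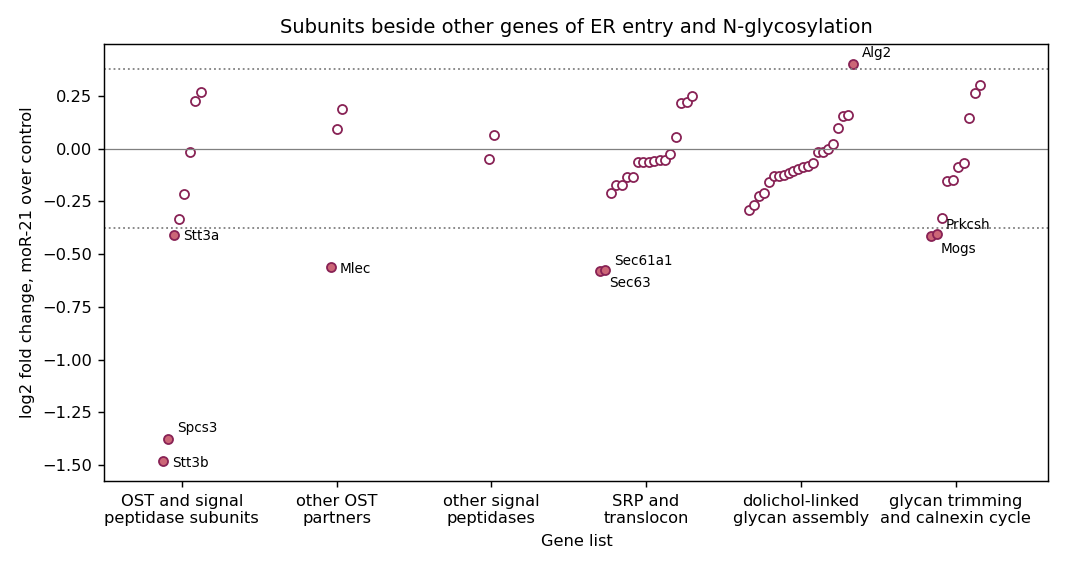
Log2 fold change of moR-21 over control for the 8 tested subunit genes and the 55 related genes in 5 lists, each point a gene at its brightest detected probe, with dotted lines at a 1.3-fold change. Filled points were called by limma and are named, and Stt3b and Spcs3, at −1.48 and −1.38, lie below every related gene shown, the lowest of which is Sec63 at −0.58.

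Genes with profiles most like those of Stt3b and Spcs3 were found by Pearson's r over the 6 samples. For Stt3b these were Rab31 (r = 0.9996), Gtf2h3 (0.9987), Acot1 (0.9986), Atp6v1b2 (0.9984) and Cd164 (0.9982). For Spcs3 they included Il17rc (r = 0.9998), Frs2 (0.9994), Sort1 (0.9992) and Aox3 (0.9988). With only 6 samples in separate groups such values mostly record the treatment split, and 765 probes had r above 0.95 with Stt3b and 729 below −0.95.

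The stretch around each start of transcription was searched on both strands for the ER stress response element ERSE, a motif of many ER folding genes. ERSE is CCAAT, then 9 bases of any kind, then CCACG, and its parts CCAAT and CCACG were searched as well. The RefSeq promoter windows had 300 bases (250 before to 50 after the start, GRCm38.p6). Windows were found for 9 of the 10 subunit genes, all but Spcs3. The whole element was in 0 of these 9 genes and in 0.119% of all 32851 windows. CCAAT was in 7 of the 9 genes, against 37.4% of all windows, and CCACG in 8 of 9, against 32.8%. A gene was counted if any of its windows matched, whereas the shares are per window, so the units differ. The only CCACG sites of Sec11a, Dad1 and Ddost lay after the start. These are matches of letters and not measured binding. The 250 bases before the starts of Stt3b and Stt3a are shown because both catalytic subunits fell, with CCAAT and CCACG on either strand in capitals (a CCAAT on the other strand reads ATTGG).
Stt3b, chr9:115310469-115310718, minus strand: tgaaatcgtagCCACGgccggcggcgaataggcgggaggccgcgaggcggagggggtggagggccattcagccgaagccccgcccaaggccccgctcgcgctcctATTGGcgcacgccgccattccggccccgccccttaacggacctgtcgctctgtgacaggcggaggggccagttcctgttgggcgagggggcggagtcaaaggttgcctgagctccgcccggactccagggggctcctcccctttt
Stt3a, chr9:36767623-36767872, minus strand: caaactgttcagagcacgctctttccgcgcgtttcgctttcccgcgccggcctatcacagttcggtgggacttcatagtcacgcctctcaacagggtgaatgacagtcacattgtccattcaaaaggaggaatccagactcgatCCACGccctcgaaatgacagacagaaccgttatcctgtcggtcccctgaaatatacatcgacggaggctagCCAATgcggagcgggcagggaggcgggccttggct
Counted from the start, the CCAAT of Stt3b lay at −145, on the other strand, and that of Stt3a at −35. The Stt3b stretch was 70.4% G and C and the Stt3a stretch 56.0%, where the median over all upstream stretches of this length was 52.4%.

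Most markers of other cell types were undetected or uncalled, and a few moved. Upk3b, a mesothelial marker, fell by 1.24 (limma adjusted p = 2.51e-10), while Krt19 was not called, and Msln and Lrrn4 were detected on 0 arrays. The summed signal of the mesothelial list, whose largest share came from Upk3b, was 959 to 972 in control samples and 594 to 605 in moR-21 samples. All such sums include probes detected on 0 arrays. Of 5 macrophage markers 3 were detected on 0 arrays, and the lysozyme probe, listed as Lyz, rose by 0.58. The macrophage sum, whose largest share came from the lysozyme probe, was 750 to 793 in control samples and 916 to 966 in moR-21 samples. Among smooth muscle markers Acta2 rose by 0.40, whereas Des stood at −0.38 (limma adjusted p = 8.60e-05, not called) and Smtn at −0.05. The smooth muscle sum, to which the bright Acta2 probe contributed most, was 10148 to 10533 in control samples and 12902 to 13746 in moR-21 samples. The endothelial sum, with 7 of its 8 genes detected on 0 arrays, was 816 to 830 and 827 to 844. Their part in the values of the subunit genes was not tested.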

How the data were processed

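Total RNA was labelled and hybridized to Illumina mouse BeadChips, and the authors deposited for each of 25697 probes a non-normalized intensity on 8 arrays with a detection p-value, also as deposited by the authors. Background correction before deposit is not given in the sources used here, and 0 value columns were left without a sample. The paper names quantile normalization and limma. Here the 8 arrays were quantile normalized, log2 transformed and averaged within samples, and limma (lmFit, eBayes) was fitted without covariates over the 11651 probes (8727 genes) detected on 1 or more arrays (detection p-value below 0.01), with Benjamini-Hochberg adjustment. Calls needed more than a 1.3-fold change with adjusted p below 0.002. The number of samples limits precision. Alternatives were normexp correction (limma nec, offset 16), median scaling, cyclic loess, other detection filters, array A or B alone, all 8 arrays with sample as random block, eBayes trend and robust, the replicate number as block, each sample left out, looser p, stricter fold and every probe. The script was tested on simulated data. Members and lists were chosen with earlier results of these data known. Every subunit and partner gene on the array is named, as are called genes of the other lists, at most 4 each way, and the 5 genes most like Stt3b and Spcs3, of which 1 is not reported here. Older symbols (2410014A08Rik for Mlec, 2310008M10Rik for Ostc, H13 for Hm13, Gcs1 for Mogs, Srp54 for Srp54a) were matched by synonym. Array coordinates are not given, and probe sequences were not used. The software was R 4.3.3, limma 3.58.1, Python 3.11.15, pandas 2.3.3 and matplotlib 3.10.9.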

Additional observations from a re-analysis of the deposited data

How the results depend on the processing

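The 3 subunit genes called lower and the 0 called higher kept these counts under every alternative except a fold change over 1.5, which left 2 lower and dropped Stt3a. The largest moves came from normexp background correction, to −0.93 for Stt3a and −1.68 for Spcs3. The sign of Sec11a turned to 0.015 with all 8 arrays and sample as random block, and ran from −0.0683 to 0.0152 with 1 sample left out, so its direction is not settled. Of the related genes, the 5 called lower became 3 with normexp and 0 at a fold change over 1.5, and 4 to 5 with 1 sample left out. The 1 called higher became 0 at a fold change over 1.5 and was 0 to 1 with 1 sample left out, lost without moR-21 sample 1. Mogs lost its call under 8 of 16 alternatives. Whether the replicate numbers pair the samples is not settled. Deviations from group means correlated at 0.19, 0.04 and 0.06 between samples of the same number. Between samples of different number they correlated at −0.13 to 0.07. Deviations from a mean of 3 samples are tied to one another, so these values cannot decide it. The fit with the replicate number as a block gave 3 lower and 0 higher among the subunits and 5 and 1 among the related genes. For the dim probes of Stt3a and Mlec the fall was larger with normexp correction than without, and which value lies nearer the true change was not tested.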
